A study of Mus musculus with 9 samples.

Results

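The microRNAs (miRNAs) mmu-miR-378, mmu-miR-107, mmu-miR-103 and mmu-miR-33 lie inside genes of energy and lipid metabolism, and their levels were read in samples labelled as whole E18.5 mouse lung, shortly before birth. They are written without the species prefix below. They were picked by probe name, with earlier results of these counts known, and are 4 of the 566 mouse miRNA probes of a NanoString nCounter panel, which counts colour-coded reporter molecules without amplification. The labels give 4 lungs homozygous for the Bim3'UTRmut allele (mutant 6 to 9) and 5 wild type lungs (wild type 1 to 5), all C57BL/6. Bim (Bcl2l11) is a pro-apoptotic protein of the Bcl-2 family, and the name of the allele places the mutation in its 3′ untranslated region. A 100 ng portion of total RNA was run per sample, and neither litter nor sex is given in the sources used here, so the p-values below measure the spread between these samples, which may be partly technical.

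An intronic miRNA is cut from the transcript of its host gene. In the RefSeq annotation of GRCm38.p6 the miR-378 hairpin lies within Ppargc1b, which encodes PGC-1β, a coactivator of mitochondrial genes, and miR-378 is known in mice as a miRNA of heart, skeletal muscle and brown fat. The 2 copies of miR-103 lie within Pank3 and Pank2 and miR-107 lies within Pank1. These genes encode pantothenate kinases, which start the synthesis of coenzyme A, and both miRNAs are known in mice to dampen insulin signalling. The miR-33 hairpin lies within Srebf2, which encodes SREBP-2, the activator of cholesterol synthesis, and miR-33 represses the cholesterol exporter Abca1. The host mRNAs were not analysed here.

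The mature sequences are shown because miR-103 and miR-107 differ by 1 base, so that their probes must tell near-identical RNAs apart, and because their seed overlaps that of the miR-15/16 relatives used below for comparison. They are RefSeq sequences on GRCm38.p6, 5′ to 3′, with the seed (bases 2 to 8) in capitals. miR-103-3p is encoded at chr11:35782447-35782469 and at chr2:131288103-131288125, both on the plus strand, miR-107-3p at chr19:34820700-34820722 on the minus strand and miR-33-5p at chr15:82198127-82198147 on the plus strand.
miR-103-3p: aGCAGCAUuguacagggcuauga
miR-107-3p: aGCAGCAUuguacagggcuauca
miR-33-5p: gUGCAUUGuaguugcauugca
miR-16-5p: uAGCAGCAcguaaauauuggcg
miR-322-5p: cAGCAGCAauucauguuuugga
miR-503-5p: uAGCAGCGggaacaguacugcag
Counted from the 5′ end, miR-103-3p and miR-107-3p share 22 of 23 bases and differ by G22C, far from the common seed. The run AGCAGC begins at base 1 in these 2 miRNAs and at base 2 in miR-16, miR-322 and miR-503. How far the miR-103 and miR-107 probes read each other's target was not tested.

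The mouse miRNA total lay between 206964 and 289227 counts in each sample. The mean of the 8 negative controls ran from 28.1 to 79.1 between lanes, and the lanes of mutant 6 and wild types 2 and 5 were the highest (64.3 to 79.1, against 28.1 to 39.5). A probe counts as detected in a sample when it lies over 2 SD above the negative control mean of its lane. Mutant 8 and wild type 3 stood apart from the other 7 samples. Their counts of miR-208a, a cardiac miRNA from within the heart myosin gene Myh6, were 1271 and 1202, against 15 to 54 in the others. The members are described across this split, which was drawn at 500 counts of miR-208a: the nearest values on either side of it were 1202 (wild type 3) and 54 (wild type 5). Besides miR-208a, the panel held 5 heart markers: miR-208b, miR-499, miR-133b and the muscle miRNAs miR-1 and miR-133a. They summed to 120918 CPM in mutant 8 and 129257 CPM in wild type 3, against 1129 to 2051 CPM in the others. All 5 lay above the other 7 samples in both in CPM, miR-133b by the least (1.65 and 1.60 times the median). The raw count of miR-133b in wild type 3 (75) lay within the range of the others (46 to 93). The 5 lung epithelial markers (the miR-200 family) summed to 4369 and 3280 CPM, against 27636 to 33507 CPM, and all 5 lay below in both. No marker was at 0. These levels go against the lung label of mutant 8 and wild type 3, and which tissue these samples hold was not tested. CPM are counts scaled to a common library total with TMM factors from the kept probes, where a kept probe was detected in at least 4 samples (189 of 566). Over all kept probes 18.52% lay above the other 7 in both samples and 20.11% below. Of the 5 heart markers only miR-1 and miR-133a were kept. Because the split was made from measured values and the members were picked with it known, it is described without a test, and fewer cells of a type cannot be told apart from less RNA per cell in whole tissue.

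miR-378, miR-107 and miR-103 were detected in 9 of 9 samples and were kept. miR-33 was detected in 0 of 9 and was not kept, so it entered no fit.

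**Figure D1:**
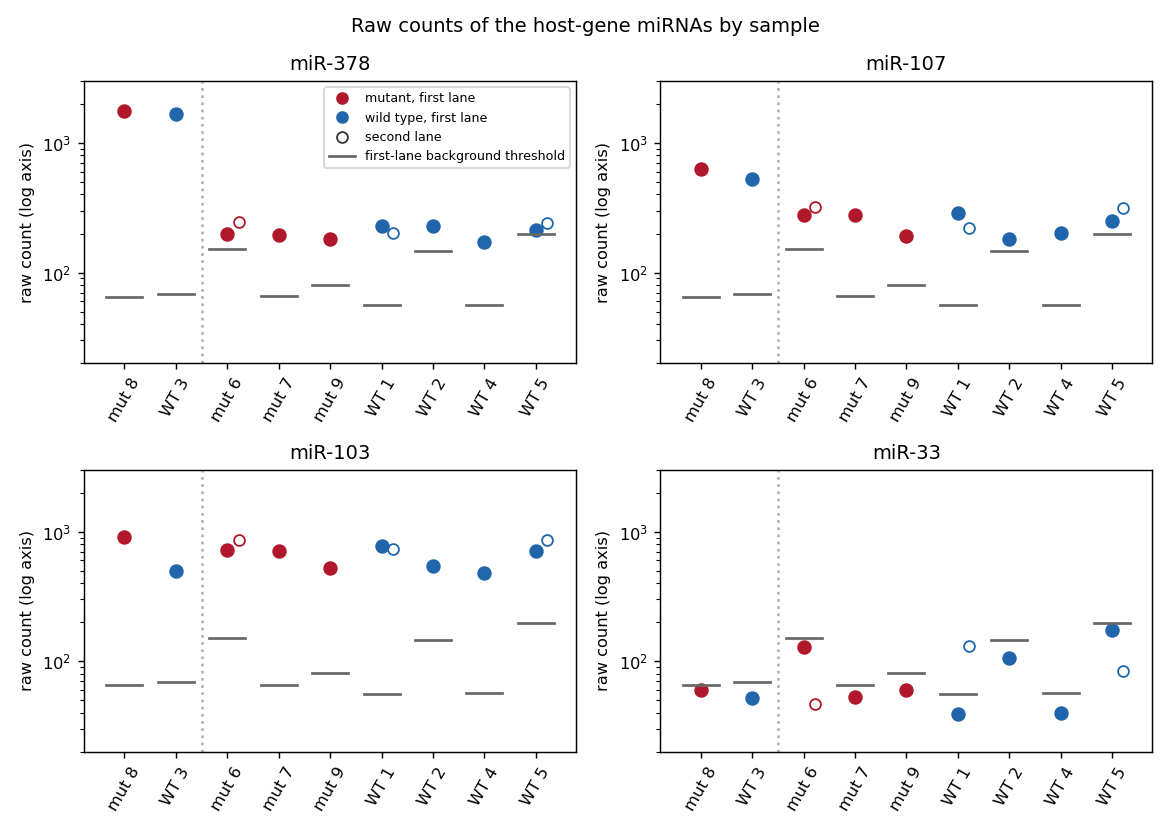
Raw counts (log axis) of each member in every sample, with mutant 8 and wild type 3 left of the dotted line. Filled points are first lanes, open points second lanes of the same RNA and grey bars the background threshold of each first lane. miR-378 stood at 1775 and 1672 counts in these samples and at 172 to 229 in the others, and the first-lane counts of miR-33 lay under the bar in every sample.

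miR-378 showed the widest separation among the members. It had 1775 counts in mutant 8 and 1672 counts in wild type 3. It had 180 to 198 counts in mutants 6, 7 and 9, and 229, 227, 172 and 214 counts in wild types 1, 2, 4 and 5. Both miR-208a-high samples thus lay far above the other 7, which were close to each other in raw count whatever their genotype. As CPM, miR-378 reached 7507 in mutant 8 and 10007 in wild type 3, 9.35 and 12.5 times the median of the other samples (803). These stood at 777, 773 and 803 CPM in mutants 6, 7 and 9 and at 882, 887, 838 and 758.1 CPM in wild types 1, 2, 4 and 5. Set against samples of their own genotype, mutant 8 was 9.67 times the median of mutants 6, 7 and 9, and wild type 3 was 11.6 times the median of wild types 1, 2, 4 and 5. By the smaller of the 2 folds, miR-378 ranked in place 4 of the 189 kept probes, after muscle miR-1 and miR-133a and the liver miRNA miR-122. The heart miRNAs miR-208a, miR-208b and miR-499 are outside this rank, since they were detected in fewer than 4 samples and not kept. miR-122 was detected in 3 of the other 7, so it is in the rank only through mutant 8 and wild type 3.

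Among the other 7 samples miR-378 was one of the steadiest kept probes before background subtraction. The SD of its log2 CPM was 0.09, against a median of 0.22 over all kept probes, with only 4 of the 189 below it. Its counts there were not far above background in the noisier lanes: 214 in wild type 5 stood 1.08 times over the lane's threshold. Subtracting the mean negative control count of each lane moved the folds to 11.6 in mutant 8 and 15.4 in wild type 3. The miR-378 count was 2.70 times that mean in wild type 5 and 8.14 times in wild type 1. The SD among the other 7 was not computed after subtraction, so the low spread is shown only for unsubtracted counts.

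miR-107 separated the same samples by a smaller factor. It had 628 counts in mutant 8 and 522 in wild type 3, against 280, 280 and 190 in mutants 6, 7 and 9 and 286, 182, 203 and 249 in wild types 1, 2, 4 and 5. The ranges did not overlap. These were 2.69 and 3.16 times the median of the other 7 in CPM, and miR-107 ranked in place 9 of 189. Its level in the other 7 ran from 711 to 1109 CPM (SD of log2 CPM 0.24), wider than for miR-378 before background subtraction.

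miR-103, which carries the same seed, differed least across the split among the kept members. It had 901 counts in mutant 8 and 501 in wild type 3, against 723, 713 and 527 in mutants 6, 7 and 9 and 776, 543, 476 and 711 in wild types 1, 2, 4 and 5. Raw counts overlapped: mutant 8 had the most of any sample, but wild type 3 had fewer than 6 of the other 7 samples. In CPM the 2 samples read 1.51 and 1.19 times the median of the other 7, and wild type 3, at 2999 CPM, lay just over the highest of them, 2990 CPM in wild type 1. That order held only under TMM scaling: in the 5 other scalings and after background subtraction the ranges overlapped. The averaged log2 difference was 0.42 under TMM, -0.01 under housekeeping mRNA scaling and -0.30 under positive control scaling. Those scalings moved the median of all kept probes by -0.28 and -0.52 log2, and relative to that median miR-103 stood at 0.27 and 0.23. miR-378 and miR-107 lay above the other 7 in both samples under every scaling tried.

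**Figure D2:**
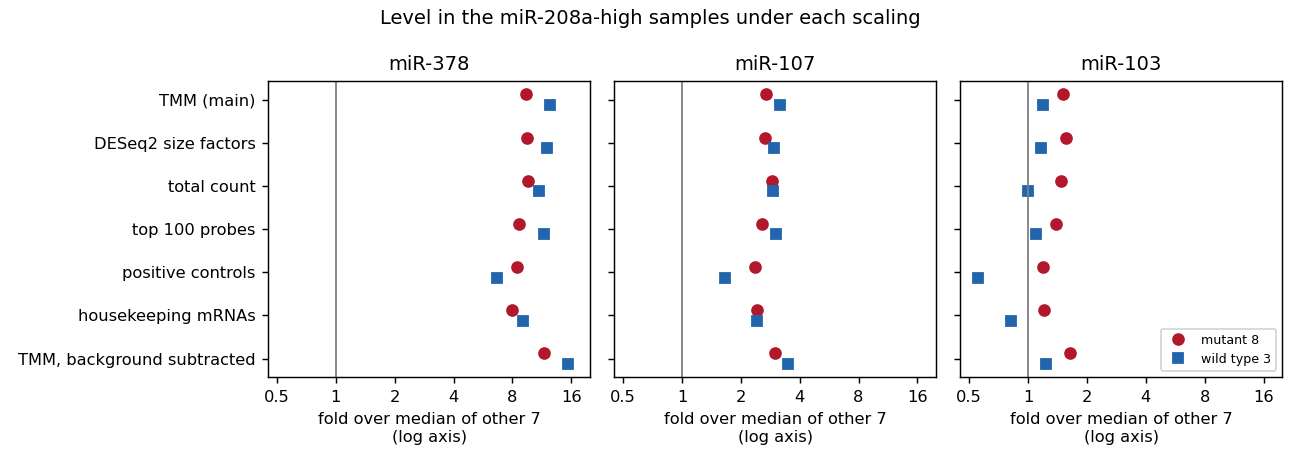
Fold of mutant 8 (circles) and wild type 3 (squares) over the median of the other 7 samples (log axis), one panel per member and one line per scaling. miR-378 and miR-107 stayed right of 1 throughout, between 6.66 and 15.4 and between 1.65 and 3.47, while wild type 3 crossed 1 for miR-103, at 0.556 to 1.24.

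All 3 kept members lay above the other 7 in both samples under TMM, a pattern shared by 18.52% of the 189 kept probes, while 20.11% lay below. Nothing is read from that count, since the members were picked with this pattern known. miR-378 and miR-107 exceeded the median of the other 7 by more than 2 times in both, as 6.349% of kept probes did, and 7.937% fell under 0.5 times that median in both. Between the 2 samples, mutant 8 had 0.750 times the CPM of wild type 3 for miR-378, 0.850 times for miR-107 and 1.27 times for miR-103. The same quotient ran from 0.611 to 1.09 over the 6 heart markers, miR-208a included.

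The counts of the 2 seed-sharing miRNAs were also set against each other within each lane, which needs no scaling between lanes. Probes can differ in efficiency, so the ratio of miR-103 to miR-107 counts is read only between samples. The ratio was 1.43 in mutant 8 and 0.960 in wild type 3. It was 2.58, 2.55 and 2.77 in mutants 6, 7 and 9 and 2.71, 2.98, 2.34 and 2.86 in wild types 1, 2, 4 and 5. Both miR-208a-high samples lay below all others, as they did after background subtraction, at 1.46 and 0.957 against 2.59 to 4.07. The second lanes gave 2.69 for mutant 6, 3.31 for wild type 1 and 2.74 for wild type 5. For wild type 1 that is a gap of 0.594 between lanes of the same RNA, nearly the range of the 7 first-lane values (0.639).

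**Figure D3:**
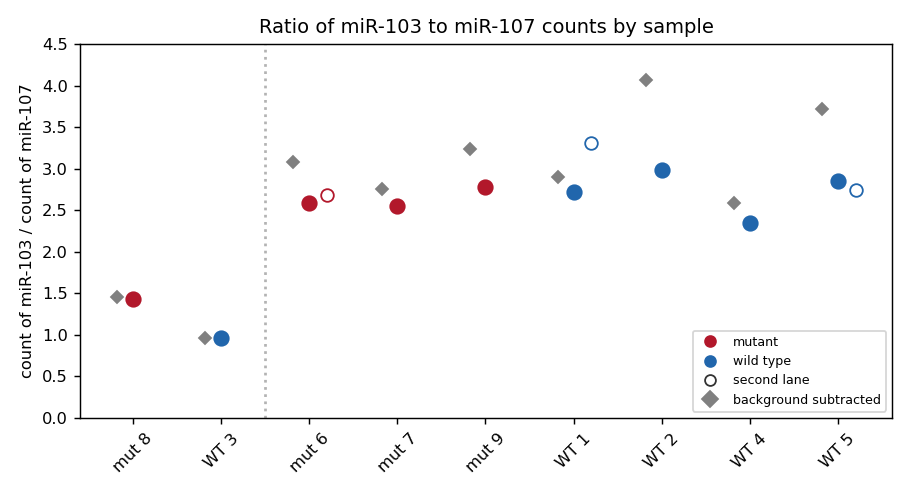
Ratio of the miR-103 count to the miR-107 count in each sample. Filled circles are first lanes, open circles second lanes and grey diamonds the ratio after subtracting the lane's mean negative control count. Mutant 8 (1.43) and wild type 3 (0.960), left of the dotted line, lay below the other samples, whose lowest ratio was 2.34.

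miR-33 could not be told from background. Its counts ran from 39 to 175, or 0.843, 0.807, 0.922 and 0.745 times the lane threshold in mutants 6, 7, 8 and 9 and 0.693, 0.716, 0.757, 0.709 and 0.886 times in wild types 1 to 5. Every sample was thus below its threshold. The 3 highest first-lane counts came from the 3 first lanes of highest background. Repeat lanes of the same RNA also differed: miR-33 read 39 and 132 in the lanes of wild type 1 (mean negative control 28.1 and 67.1) and 175 and 84 in those of wild type 5 (79.1 and 44.9). In mutant 6 it read 1.45 log2 lower in the second lane, at 47 counts (mean negative control 66.8 and 29.4). Within the 3 pairs its level, scaled to the total of kept probes, differed by 1.28 to 1.75 log2. The kept members differed by 0.05 to 0.36 log2 in the same pairs, near the median of 0.16 to 0.23 over all kept probes. No level of miR-33, and no difference between samples, was detectable at this background.

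**Figure D4:**
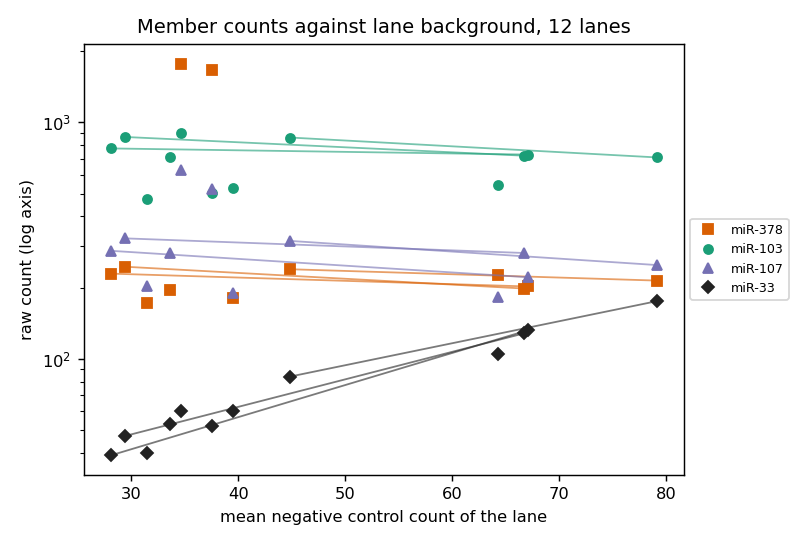
Raw count (log axis) of each member against the mean negative control count of its lane, for all 12 lanes. Lines join the 2 lanes of mutant 6, wild type 1 and wild type 5. miR-33 climbed with lane background from 39 to 175 counts, whereas the lines of the other members were close to level.

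The comparison of mutant and wild type samples asked whether these miRNAs depend on the Bim allele. No member passed Benjamini-Hochberg adjustment over the 189 kept probes in edgeR's quasi-likelihood test, nor did any other probe (0 of 189, 0%). Before adjustment 5 probes had a p under 0.05, none of them a member. DESeq2 called 0 of 184 probes (0%) with 9 under 0.05 before adjustment, and gave miR-378 no p. The log2 fold change of mutant over wild type was -0.12 ± 1.06 for miR-378 (SE, 4 against 5), 0.07 ± 0.50 for miR-107 and 0.19 ± 0.19 for miR-103, each at an adjusted p of 0.997 in edgeR.

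The 2 miR-208a-high samples, 1 in each genotype, widened the SE of miR-378 and miR-107 and pulled their fold changes in opposite directions. Without mutant 8 alone miR-378 read -1.77 and miR-107 -0.41, and without wild type 3 alone they read 1.55 and 0.63, with edgeR adjusted p of 0.968 and 0.741. Without both, 3 mutants stood against 4 wild types, and the SE was 0.13 for miR-378 and 0.17 for miR-107. miR-378 was then 9.63 ± 0.03 log2 CPM in the mutants and 9.73 ± 0.10 in the wild types (SD), a fold of 0.932 with a 95% interval of 0.766 to 1.13. miR-107 was 9.99 ± 0.22 and 9.84 ± 0.27, a fold of 1.11 (0.853 to 1.44). miR-103 was 11.38 ± 0.15 and 11.27 ± 0.21, a fold of 1.07 (0.846 to 1.36). Each edgeR adjusted p was 0.980. The ranges of the genotypes overlapped for all 3 members.

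The comment line of the lane table calls wild type 5 a mutant, against its sample label and the series design. Counting it as mutant in the 7 samples gave log2 fold changes of -0.16 ± 0.12 for miR-378, 0.08 ± 0.18 for miR-107 and 0.09 ± 0.16 for miR-103 (SE), with an edgeR adjusted p of 0.917 for each. The log2 ratio of miR-103 to miR-107 was 1.18 ± 0.44 in the mutants (SD, n = 4) and 1.14 ± 0.68 in the wild types (n = 5), an exact two-sided permutation p of 0.921. Without mutant 8 and wild type 3 it was 1.40 ± 0.07 (n = 3) and 1.44 ± 0.15 (n = 4), with an exact permutation p of 0.686, where 0.0286 is the smallest this design gives.

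**Figure D5:**
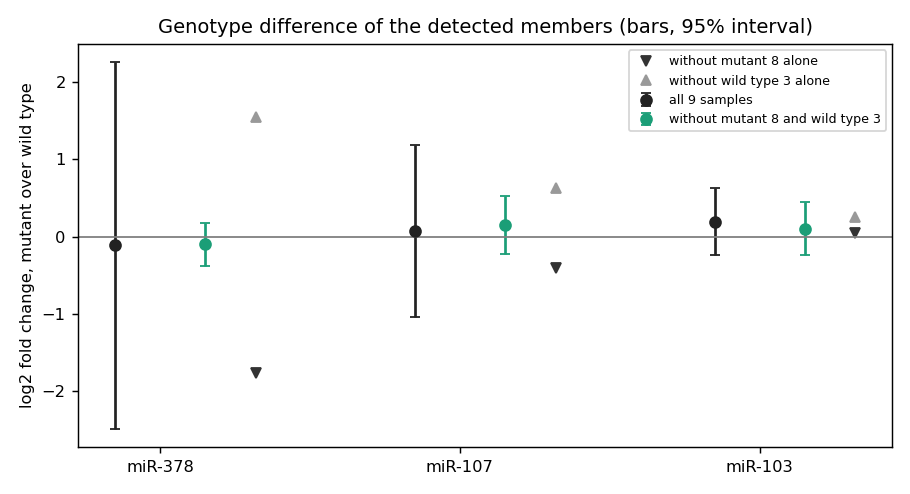
Log2 fold change of mutant over wild type samples for the 3 detected members, with 95% intervals from edgeR. Black points use all 9 samples and green points leave out mutant 8 and wild type 3. Triangles leave out only 1 of these samples and lie on opposite sides of 0 for miR-378 and miR-107, at -1.77 and 1.55 for miR-378.

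Other miRNAs were set beside the members by lists drawn up with earlier results of these counts known. The miR-15/16 relatives share AGCAGC near the 5′ end with miR-103 and miR-107 and restrain the cell cycle. Of 7 on the panel 5 were kept, 0 passed the genotype test in either direction, and their median log2 fold change was 0.05, against -0.03 over all kept probes. Their log2 fold changes were 0.20 ± 0.12 for miR-16, 0.13 ± 0.13 for miR-15b, 0.05 ± 0.15 for miR-503, -0.04 ± 0.25 for miR-15a and -0.28 ± 0.34 for miR-322 (SE). Across the miR-208a split all 5 read under the median of the other 7 in both samples, where miR-107 read 2.69 and 3.16 times it. None lay above the other 7 in both samples and 2 lay below, against 18.52% and 20.11% over all kept probes. Nothing is read from these counts. Those below were miR-15a (0.609 and 0.519 times the median in mutant 8 and wild type 3) and miR-322 (0.305 and 0.492 times). miR-16 read 0.940 and 0.725 times, miR-15b 0.999 and 0.770 times and miR-503 0.870 and 0.803 times.

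The second list held 44 probes of miRNAs within other protein-coding genes, of which 23 were kept. In the mutant 0 passed in either direction, 10 read higher and 13 lower, with a median of -0.02. Over all kept probes 76 read higher and 113 lower, which is 40.2% higher under TMM and 71.4% under housekeeping scaling. The most abundant were miR-126-3p, an endothelial miRNA within Egfl7 (-0.20 ± 0.14), and miR-16 (0.20 ± 0.12). The same mature miR-16 is encoded within Smc4 and at a chromosome 14 copy that no annotated protein-coding gene spans. Its count is therefore not of the Smc4 copy alone. Across the split 3 of the 23 lay above the other 7 in both samples and 2 below, against 18.52% above and 20.11% below over all kept probes. Named after their values were seen, those above were miR-149 (within Gpc1), miR-335-5p (Mest) and miR-218 (Slit genes), and those below were miR-25 (Mcm7) and miR-140 (Wwp2). Over all 44 probes, kept or not, 8 lay above and 3 below. Those above but not kept included the heart miRNAs miR-208a, miR-208b and miR-499, so the count among kept probes leaves them out. The shares of 18.52% and 20.11% are over kept probes only and are no reference for all 44 probes. No matching share over all mouse miRNA probes is given, so nothing is read from the 8 and 3. Of the kept probes above, miR-149 came nearest to miR-378, at 4.49 and 6.13 times the median in mutant 8 and wild type 3. It was detected in 3 of the other 7 samples, so it was kept only through mutant 8 and wild type 3. Its folds stand on a median near background, and nothing is read from them.

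The third list held 29 probes of miRNAs reported to act on lipid or glucose metabolism, of which 22 were kept. In the mutant 0 passed, 12 read higher and 10 lower, with a median of 0.04, beside the same 76 higher and 113 lower over all kept probes. Its most abundant members were miR-30c, at -0.39 ± 0.20, and miR-27a, at -0.23 ± 0.16 (SE). Across the split 7 of the 22 lay above and 3 below, beside 18.52% and 20.11% over all kept probes. The lead was miR-122, named after its values were seen, with 812 counts in both mutant 8 and wild type 3, against 43 to 232 in the others. It was detected in 3 of those 7, so it too was kept only through mutant 8 and wild type 3.

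Likeness to a member was measured over kept probes as the root mean square distance between log2 CPM profiles, each centred on its own mean. Over all 9 samples miR-378 was nearest to miR-149 (0.56), miR-122 (0.64) and miR-486 (0.67), where the median distance to all probes was 1.46. The SD of miR-378 was 1.50 log2 there, so this distance mostly reads the size of the step into mutant 8 and wild type 3. miR-149 and miR-122 were kept only through those samples. The heart miRNAs miR-208a, miR-208b and miR-499, which were not kept, were not compared. miR-107 was nearest to miR-125b-5p (0.20), miR-100 (0.23) and miR-532-5p (0.26), and miR-103 to miR-30b (0.10), the combined miR-1937a and miR-1937b probe (0.14) and miR-24 (0.15). Over the 7 samples without mutant 8 and wild type 3 the nearest probes to miR-378 were miR-126-3p, let-7d and miR-342-3p, all at 0.06. The median distance to all probes was 0.22, and the SD of miR-378 was only 0.09, so its neighbours are other probes that vary little. There miR-107 was nearest to miR-145 (0.08), miR-99b (0.09) and miR-103 (0.11), and miR-103 to miR-30b (0.07), miR-145 (0.07) and miR-1955 (0.10).

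Markers of other tissues were also set across the split. Over all kept probes 18.52% lay above the other 7 in both samples and 20.11% below. Nothing is read from such counts over so few markers. The liver marker miR-122 stood at 3434 CPM in mutant 8 and 4860 CPM in wild type 3, against 170 to 1034 CPM in the other 7. Of the 3 erythroid markers 1, miR-486, lay above in both, at 2.84 and 4.41 times the median. The other erythroid markers, miR-451 and miR-144, lay within the range of the other 7 in both samples. The 3 markers linked to fat (miR-193b, miR-365 and miR-455) summed to 1438 and 1418 CPM, against 1168 to 2569 CPM, and 0 of 3 lay above in both. Skeletal muscle miR-206 was at 791 and 425 CPM, against 270 to 453 CPM, and wild type 3 lay within that range. The endothelial markers (miR-126-3p and miR-126-5p) summed to 76297 and 117538 CPM, against 113138 to 138691 CPM, with 0 of 2 above in both. Of the smooth muscle markers (miR-143 and miR-145) 1 of 2 lay above, and of the 5 leucocyte markers 1 lay above and 1 below. The leucocyte markers summed to 7397 CPM in mutant 8 and 3771 CPM in wild type 3, against 4026 to 5756 CPM. Of these, miR-142-3p differed between the 2 samples, at 4576 and 688 CPM, against 477 to 896 CPM in the other 7. The part of these tissues in the levels of miR-378 and miR-107 was not tested.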

How the data were processed

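Per the labels' protocols, total RNA came from lungs ground in liquid nitrogen, and 100 ng per sample was run on the nCounter panel. The authors deposited raw counts for each probe. Their normalization and filters: not given in the sources used here. A lane table held the same counts for 12 lanes of 1 cartridge, per the file headers. All 5634 values of the count table equalled the first lanes, which were used. Second lanes of samples 1, 5 and 6 serve as technical repeats and are not extra samples.

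From the counts of mouse miRNA probes, 189 of 566 were kept (above the negative control mean plus 2 SD of the lane in at least 4 samples). Genotype was fitted with edgeR 4.0.16 in R 4.3.3 (TMM, glmQLFit, glmQLFTest, no covariate, Benjamini-Hochberg at 0.05), with 95% intervals from the fit's SE and degrees of freedom. Log2 CPM used a prior count of 2. Ratios used exact permutation tests over 126 splits. Alternatives were DESeq2 1.42.0, limma 3.58.1, other scalings, filters, lanes and sample sets. The edgeR fit was tested on simulated data. Members and lists were chosen with earlier results of these data known. Named are the members, every kept miR-15/16 relative, the 2 most abundant of each other list, miR-208a and the 3 nearest probes to each member. Others are named as tissue markers, as the kept probes ranked above miR-378, or after their values were seen. Sequences are RefSeq's on GRCm38.p6. Figures were drawn with matplotlib 3.10.9.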

Additional observations from a re-analysis of the deposited data

Results flagged for a closer look

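In a gap test for a value far from the rest of its genotype, run on log2 values, 6 values in 26 tested groups were marked, 2 in mutant 8, 3 in wild type 3 and 1 in mutant 6. miR-208a, which draws the split, was not tested, and miR-378 and the ratio of miR-103 to miR-107 were chosen with these samples' values known. About 1 group in 20 is marked by chance alone, and several of these measures share probes. miR-378 was high in mutant 8 (12.88 log2 CPM) and in wild type 3 (13.29 log2 CPM). The log2 ratio of miR-103 to miR-107 was low in mutant 8 (0.52) and in wild type 3 (-0.059). miR-322 was low in wild type 3 (14.18 log2 CPM). miR-33 was high in mutant 6 (a log2 count of 7), in a lane with a mean negative control count of 66.8, and its second lane gave 47 counts.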

How the results depend on the processing

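No paired analysis was possible because the genotypes share no replicate number. In each of 26 alternatives 0 probes passed adjustment. The log2 fold change of miR-378 (-0.12) turned positive with limma on log2(count + 1) (0.067), total count (0.052), positive control (0.39) or housekeeping scaling (0.082) and no filter (0.10). These control scalings moved the median of all probes by 0.11 (positive controls) and 0.14 (housekeeping). That of miR-107 (0.07) turned to -0.17 with sample 5 as mutant. Leaving out 1 sample gave -1.77 to 1.55 for miR-378, positive without wild type 3 or mutant 6, 7 or 9, and -0.41 to 0.63 for miR-107, negative without mutant 8 or wild type 2, 4 or 5. It gave 0.04 to 0.29 for miR-103, which stayed positive in all 26 alternatives. The genotype difference in log2 ratio (0.04) turned to -0.021 with background subtracted, -0.044 without samples 3 and 8, and -0.019 without sample 5 as well, and ran from -0.26 to 0.26 when 1 sample was left out (negative without wild type 3 or mutant 6, 7 or 9).

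Alternatives for the miR-208a split were chosen after seeing the data. The averaged log2 difference of miR-378 (3.43) was 3.32 with the top 100 probes, 2.90 with positive controls, 3.08 with housekeeping mRNAs and 3.74 with background subtracted. That of miR-107 (1.54) was 0.99 with positive controls and 1.28 with housekeeping mRNAs, and that of miR-103 (0.42) was -0.30 and -0.0063. The log2 ratio moved by -1.21, or -1.38 with background subtracted. Positive control and housekeeping scaling moved the median of all kept probes by -0.52 and -0.28 log2. Relative to that median miR-107 stood at 1.51 and 1.55 (1.50 under TMM). miR-378 stood at 3.43 and 3.36 (3.39 under TMM). Why that median, and the values after background subtraction, moved was not tested. Lane background limits miR-33 in every sample.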
